A study of Mus musculus with 6 samples.

Results

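The long-chain acyl-CoA synthetases (Acsl) were followed by microarray in the back skin of newborn mice. The family was taken by gene symbol, from all probe sets that the array annotation assigns to Acsl1, Acsl3, Acsl4, Acsl5 or Acsl6 alone. Probe sets listed under more than 1 symbol were not taken. A probe set is the group of short probes with which the array measures 1 transcript region. This gave 9 probe sets of 4 genes out of 45037 probe sets: 3 each of Acsl3 and Acsl4, 1 of Acsl5 and 2 of Acsl6. Acsl1 has no probe set under its symbol alone in the annotation used and is not analysed here.

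Skin came from 6 female mice of a single litter, killed on postnatal day 2.5 on a mixed FVB/N and C57BL/6 background, with 1 array per mouse. In the caNrf2 group, 3 K5cre-caNrf2 (tg/tg) mice carried Cre under keratin 5 control together with a constitutively active Nrf2. In the control group, 3 K5cre-wt (tg/wt) littermates carried Cre without the active Nrf2. Keratin 5 marks basal keratinocytes, so the transgene acts in the epithelium while the RNA came from the whole skin with dermis, fat, muscle, vessels and pigment cells. Genotype is written tg/g for the caNrf2 samples in 1 field, and the treatment field does not tell the groups apart, so sample titles gave the groups. The titles read "transgene strong" for the caNrf2 and "wildtype strong" for the control samples.

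Acyl-CoA synthetases of this family join long-chain fatty acids to coenzyme A at the cost of ATP. Only the activated acyl-CoA can be burnt in mitochondria and peroxisomes or built into triglycerides, phospholipids, wax esters and the ceramides of the epidermal barrier. The members differ in location and substrate: Acsl3 sits on the endoplasmic reticulum and lipid droplets, Acsl4 prefers arachidonic and related polyunsaturated acids, Acsl5 is found at mitochondria and endoplasmic reticulum, and Acsl6 is best known from brain and red cell precursors. Nrf2 is the transcription factor that turns on antioxidant and detoxification genes once it escapes its repressor Keap1.

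In caNrf2 skin 8 of the 9 Acsl probe sets had a lower mean log2 intensity than in control skin, and 1 was higher. Of all probe sets 51.3% were lower by this measure. The groups did not overlap in 5 probe sets, all of them lower in caNrf2 skin, where 11.7% of all probe sets were lower without overlap. In the limma fit over all probe sets, 2 of the 9 passed an adjusted p of 0.05, both as lower, against 0.633% of all probe sets; 1.04% of all probe sets were called higher. The median difference of the 9 was -0.30 on the log2 scale, beside -0.00 for all probe sets. The family was chosen by its log2 intensity differences in this very comparison, known beforehand, so its differences and counts describe these arrays and are not tests. The probe sets of a gene also share their RNA and are not replicates of each other.

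**Figure D1:**
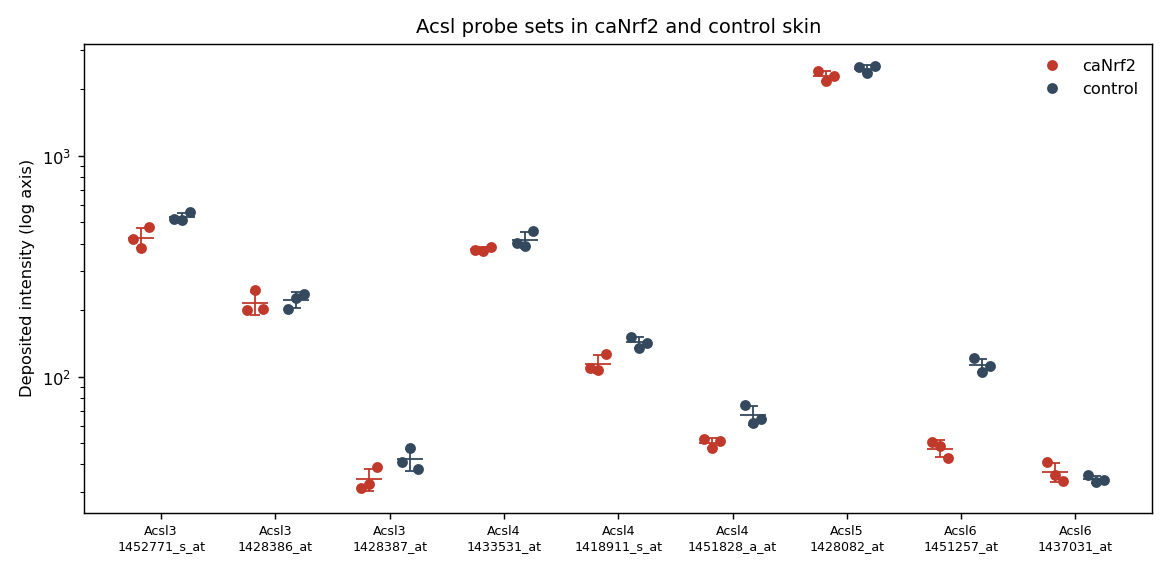
Deposited intensity of the 9 Acsl probe sets on a log axis, 3 caNrf2 arrays (red) left of 3 control arrays (dark), with each group's mean and SD. The groups stand clearest apart in Acsl6 1451257_at, with 42.6 to 50.6 in caNrf2 and 105 to 121 in control skin, while Acsl6 1437031_at overlaps.

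Acsl6 had the largest difference of the family. Probe set 1451257_at read 50.6, 48.5 and 42.6 in the 3 caNrf2 skins, against 120.7, 104.8 and 111.9 in the 3 control skins. Every caNrf2 array was thus below every control array by a wide margin, with 47.2 ± 4.18 in caNrf2 and 112 ± 7.96 in control skin (mean intensity ± SD, n = 3 each). The log2 difference was -1.25 ± 0.09 (SE), a signal 58.1% lower in caNrf2 skin. Counting itself, 11 of all 45037 probe sets had a difference this low or lower.

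The other Acsl6 probe set, 1437031_at, did not share this difference. It read 40.9, 35.9 and 33.8 in caNrf2 skin and 35.8, 33.2 and 33.8 in control skin. The groups overlapped, and the difference was 0.10 ± 0.08 (SE). This probe set was dim in both groups. Probe sets of Y-linked genes, which have no target in female mice, gauge how much signal arises without one: 12 of 13 such probe sets lay between 6.20 and 39.7 on single arrays, and an Sry probe set whose suffix _x_at marks probes shared with other sequences reached 65.1. Signal of 1437031_at lay largely within that range, whereas 1451257_at was above all Y-linked values in control skin and between 42.6 and 50.6 in caNrf2 skin, above the 12 and below the highest. The residual caNrf2 signal of 1451257_at may therefore hold background, and the size of its difference is uncertain. Which Acsl6 transcripts either probe set detects is not given in the sources used here.

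Differences of the Acsl6 probe sets lay 1.35 apart on the log2 scale, and those of Acsl3 and Acsl4 spread over 0.27 each, beside a median of 0.13 over 9010 genes with several probe sets. The spreads describe these arrays only, since 1437031_at lay largely in the Y-linked range and the unequal probe sets were known when the family was chosen.

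**Figure D2:**
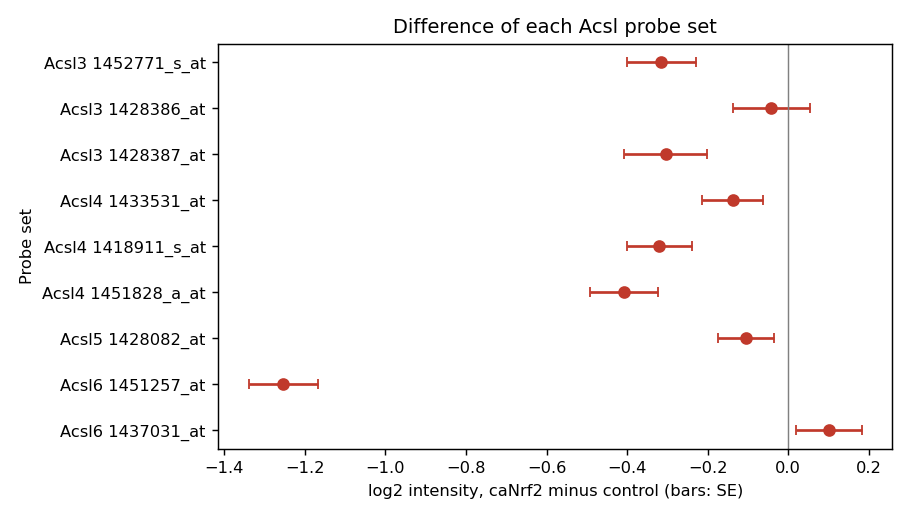
Difference of log2 intensity, caNrf2 minus control, for each Acsl probe set, with SE bars from the limma fit over all probe sets (3 arrays per group). Acsl6 spans from -1.25 to 0.10, Acsl4 from -0.41 to -0.14 and Acsl3 from -0.31 to -0.04.

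Acsl6 has 3 annotated start regions on chromosome 11, which may give rise to different transcripts. Their windows from RefSeq (build GRCm38.p6, plus strand, 250 bases before to 50 after each start) are shown because the Acsl6 probe sets disagree and because Nrf2 binds antioxidant response elements. These windows were searched on both strands for the core letters of that element, TGACNNNGC, and for the AP-1 letters TGACTCA. Capitals mark a match.
Acsl6 window 1, chr11:54303574-54303873: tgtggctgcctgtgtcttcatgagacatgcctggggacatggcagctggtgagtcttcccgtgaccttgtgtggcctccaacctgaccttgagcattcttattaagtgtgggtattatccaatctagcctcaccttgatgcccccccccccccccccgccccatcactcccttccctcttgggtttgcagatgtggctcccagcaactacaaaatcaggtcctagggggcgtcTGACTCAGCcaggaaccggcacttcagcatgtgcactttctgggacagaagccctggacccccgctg
Acsl6 window 2, chr11:54303954-54304253: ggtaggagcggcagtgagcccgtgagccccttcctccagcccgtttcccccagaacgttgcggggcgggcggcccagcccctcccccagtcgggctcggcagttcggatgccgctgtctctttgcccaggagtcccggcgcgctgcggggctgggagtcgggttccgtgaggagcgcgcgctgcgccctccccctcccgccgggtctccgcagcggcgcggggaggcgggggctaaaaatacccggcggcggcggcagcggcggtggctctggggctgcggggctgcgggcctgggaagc
Acsl6 window 3, chr11:54314653-54314952: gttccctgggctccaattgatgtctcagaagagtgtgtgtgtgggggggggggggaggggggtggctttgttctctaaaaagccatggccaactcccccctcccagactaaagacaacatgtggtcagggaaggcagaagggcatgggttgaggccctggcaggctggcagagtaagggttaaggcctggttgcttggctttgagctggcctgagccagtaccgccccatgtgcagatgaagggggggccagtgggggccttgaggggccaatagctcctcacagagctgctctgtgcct
Window 1 holds TGACTCAGC, which matches both sets of letters at once, 17 bases before its start site. Windows 2 and 3 hold neither. The RefSeq windows of Acsl3, Acsl4 and Acsl5, 1 each, hold neither as well. Across all 32851 promoter windows of the same length, 12.4% hold the antioxidant response element core and 5.20% the AP-1 letters, so 1 match among 6 Acsl windows is a description of sequence and shows no binding.

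The probe sets whose pattern lay nearest to Acsl6 1451257_at were sought among probe sets of all other genes, by the root mean square difference of the 6 log2 values, each centred on its own mean. The nearest was Krtap6-5, a cross-linking protein of the hair shaft, at a distance of 0.17. It read 1821, 1608 and 1760 in caNrf2 skin, against 4127, 4279 and 3279 in control skin. Slc5a8, a transporter of short-chain monocarboxylates, followed at 0.19, then Krtap21-1 at 0.21, the urea cycle enzyme Arg1 at 0.23 and Krtap16-3 at 0.24. All 5 were lower in caNrf2 skin with no overlap, by -1.40 to -0.92 on the log2 scale. Their choice by nearness to 1451257_at largely fixes this, so it is no separate result. The likeness is measured over 6 arrays that share the group difference. The other Acsl probe sets were at a distance of 0.43 to 0.68.

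**Figure D3:**
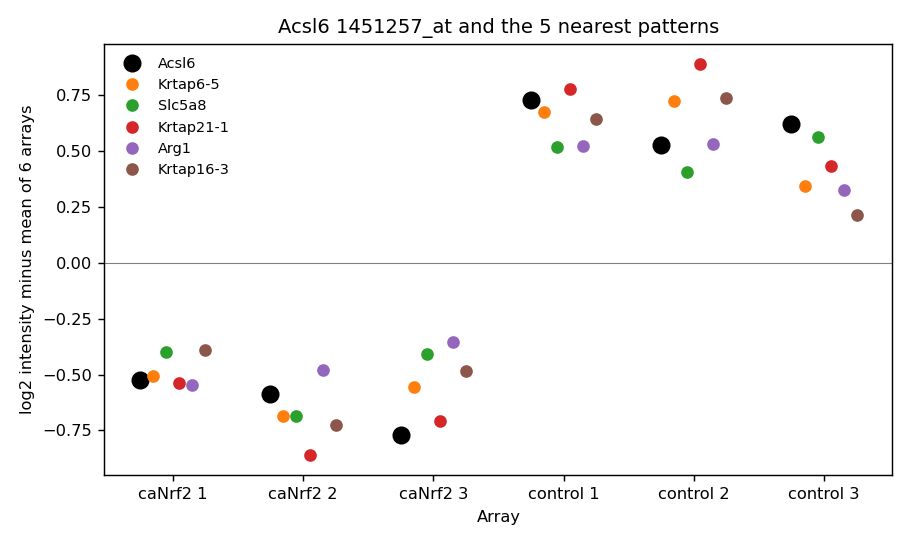
Log2 intensity minus the mean of 6 arrays for Acsl6 1451257_at (large black points) and the 5 nearest probe sets of other genes, on 3 caNrf2 and 3 control arrays. All 6 are below 0 on every caNrf2 array and above 0 on every control array, which the choice by nearness largely fixes.

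Acsl4 was lower in caNrf2 skin by all 3 of its probe sets, to a smaller degree. Probe set 1451828_a_at read 52.2, 47.2 and 51.2 in caNrf2 skin, against 74.2, 61.7 and 64.4 in control skin. Probe set 1418911_s_at read 109.6, 107 and 126 in caNrf2 skin, against 151, 135 and 142 in control skin. The brightest, 1433531_at, read 373, 370.1 and 386 in caNrf2 skin, against 401, 389.9 and 455 in control skin. No caNrf2 value reached the lowest control value in any of the 3. Their log2 differences were -0.41 ± 0.08, -0.32 ± 0.08 and -0.14 ± 0.07 (SE), so signal was 24.6%, 19.9% and 9.13% lower in caNrf2 skin. On the brightest probe set the margin was narrow, with 386 as the highest caNrf2 and 389.9 as the lowest control value. The suffixes _a_at and _s_at mark probes shared among transcripts of a gene and among different genes, so the 3 may not see the same RNA.

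Of the Acsl4 probe sets 1451828_a_at was the one that passed the threshold, near its edge. It still passed with control replicate 2 left out, but with none of the other 5 arrays left out. It was also dim: its caNrf2 values lay below and its control values around the highest Y-linked value of 65.1, and it was removed with the dim probe sets, those whose mean over the 6 arrays was under the highest Y-linked group mean of 61.5. Among the probe sets then left, 1418911_s_at passed in its place.

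Acsl3 gave a mixed picture. Probe set 1452771_s_at read 419, 384 and 473 in caNrf2 skin, against 518, 511 and 553 in control skin, and the groups did not overlap. Probe set 1428386_at read 200.3, 246 and 203 in caNrf2 skin, against 202, 227 and 237 in control skin, and here both the highest and the lowest value were from caNrf2 arrays. Probe set 1428387_at, dim in both groups, read 31.4, 32.6 and 38.9 in caNrf2 skin and 41.1, 47.6 and 38.3 in control skin, overlapping by caNrf2 replicate 3 and control replicate 3. The log2 differences were -0.31 ± 0.08, -0.04 ± 0.10 and -0.30 ± 0.10 (SE), in that order. Acsl3 overlaps Utp14b in the RefSeq annotation, so a probe set there could read either gene. Utp14b itself differed by -0.06 ± 0.09 (SE; limma, adjusted p = 0.741).

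Acsl5 differed little. Its single probe set read 2413, 2168 and 2302 in caNrf2 skin, against 2512, 2356 and 2533 in control skin. The groups overlapped, caNrf2 replicate 1 lying above control replicate 2. The means were 2294 ± 123 in caNrf2 and 2467 ± 96.6 in control skin, a log2 difference of -0.11 ± 0.07 (SE).

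The spread between arrays of a group was similar over the family. It lay between 0.07 and 0.16 on the log2 scale (SD pooled over both groups), and was largest for the dim Acsl3 probe set 1428387_at. For Acsl6 1451257_at a difference of -1.25 stood beside a spread of 0.12, and for Acsl5 one of -0.11 beside 0.07.

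The genes next to the Acsl genes were read as a check on whether a wider stretch of chromosome moved. Of the 2 protein-coding neighbours on each side of each gene, 16 in all, none passed in limma with Benjamini-Hochberg adjustment, and 3 had an unadjusted p under 0.05. Counts at an unadjusted p under 0.05, here and below, stand without the share of all genes at that cut. Their log2 differences ran from -0.33 to 0.25 with adjusted p of at least 0.171. Beside Acsl6 lie Csf2 and Il3, cytokine genes, and Meikin and Fnip1, with differences of 0.23, 0.00, 0.03 and -0.07. Beside Acsl4 lie Nxt2, Kcne1l, Tmem164 and Ammecr1, all 4 below 0, at -0.01, -0.14, -0.13 and -0.33 (limma adjusted p = 0.978, 0.424, 0.336 and 0.201). Of the Acsl6 neighbours Csf2, Il3 and Meikin were dim, with means of 26.0, 16.9 and 21.4 in caNrf2 and 22.3, 16.9 and 20.9 in control skin, within the Y-linked range.

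Other genes of fatty acid handling were taken from 10 lists that hold none of the Acsl genes, with 1 probe set per gene, the brightest. Of 190 listed genes 173 were measured by a probe set with 1 symbol. Counts of genes in a list, here and below, are of its measured genes. Of the 173 genes 7 rose and 4 fell in caNrf2 skin in limma at an adjusted p of 0.05. That is 4.05% and 2.31%, beside 2.26% and 1.39% of all 18193 genes. The median difference of the 173 was 0.01, beside -0.00 for all genes. With an unmoderated statistic only Acox2 and Ppard of the 11 passed.

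Of 16 other acyl-CoA synthetases 13 did not pass, 2 rose and 1 fell, and their median was 0.07. Acsm3, a synthetase for medium-chain acids, fell to 128 ± 6.36 in caNrf2 skin, against 171 ± 10.6 in control skin (mean intensity ± SD, n = 3; log2 difference -0.41 ± 0.07 SE, limma adjusted p = 0.011). Acss2, which activates acetate in the cytosol, rose to 378 ± 16.9 in caNrf2 skin, against 294 ± 27.0 in control skin (0.37 ± 0.08; limma adjusted p = 0.0317), and its other probe sets gave 0.41 and 0.42. Acsbg2, of the bubblegum group, rose by 0.50 ± 0.10, but its means of 21.2 and 14.9 lay within the Y-linked range. Acss2 passed with control replicate 1 left out, but with none of the other 5 arrays left out (highest adjusted p = 0.097). Acsbg2 did not pass with caNrf2 replicate 2, control replicate 1 or control replicate 3 left out (highest adjusted p = 0.0889).

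Steps that make or hydrolyse acyl-CoA showed single changes. Among 20 genes of acyl-CoA binding and hydrolysis 1 rose and 19 did not pass, with a median of -0.02. It was Acot7, a cytosolic acyl-CoA thioesterase, at 972 ± 22.8 in caNrf2 and 695 ± 47.7 in control skin (n = 3; log2 difference 0.49 ± 0.07, limma adjusted p = 0.00335). Of 13 genes of fatty acid synthesis and desaturation 11 did not pass, 1 rose and 1 fell, and their median was -0.09. Scd3, a stearoyl-CoA desaturase of skin, fell to 139 ± 11.7 in caNrf2 skin, against 263 ± 37.0 in control skin (n = 3; -0.92 ± 0.11, limma adjusted p = 0.00112), and its other probe set gave -0.81. Fads2, the delta-6 desaturase of polyunsaturated acids, rose by 0.40 ± 0.07 (limma adjusted p = 0.0174). It did not pass with replicate 2 or 3 of caNrf2 or replicate 1 or 3 of control left out (highest adjusted p = 0.0745).

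Among oxidation genes 2 passed, both as higher. Acox2, a peroxisomal oxidase of branched-chain acyl-CoA, read 523 ± 12.2 in caNrf2 and 221 ± 15.9 in control skin (n = 3; log2 difference 1.25 ± 0.07, limma adjusted p = 4.84e-06). It was the only one of 16 peroxisomal genes to pass, and the list median was 0.01. Cpt2, the inner carnitine palmitoyltransferase of mitochondria, rose by 0.32 ± 0.06 (limma adjusted p = 0.0144) as the only one of 24 genes of mitochondrial import and beta-oxidation, whose median was 0.02. Its other probe set gave 0.16, and it did not pass with replicate 2 or 3 of caNrf2 or replicate 1 of control left out (highest adjusted p = 0.064).

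Genes that use, store or bind acyl chains had few calls. Mboat1, a lysophospholipid acyltransferase, fell by 0.27 on the log2 scale (limma adjusted p = 0.0352), 24 of 25 glycerolipid genes not passing. It did not pass with any of the 6 arrays left out (highest adjusted p = 0.141), and its other probe set gave -0.04. Of 12 uptake and binding genes none passed in limma and 1 had an unadjusted p under 0.05. Fabp7 and the epidermal Fabp5 had the smallest p, with differences of -0.28 and 0.12, and the other Fabp5 probe set gave 0.30. Of 16 genes of lipid droplets and lipolysis none passed and 4 had an unadjusted p under 0.05. The droplet coat protein Plin2 read 2218 ± 8.65 in caNrf2 and 2568 ± 136 in control skin (-0.21 ± 0.06, limma adjusted p = 0.0996), and the lipase Pnpla2 differed by 0.20. Plin2 passed in 1 alternative, at an adjusted p of 0.0261.

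Around Acsl4, which supplies the polyunsaturated phospholipids that are oxidised in ferroptosis, none of 13 listed genes passed in limma and 2 had an unadjusted p under 0.05. The epidermal lipoxygenase Alox12b differed by 0.18 ± 0.05 and Alox12e by -0.23 ± 0.07 (limma adjusted p = 0.106 and 0.118). Alox12e passed in 1 alternative, at an adjusted p of 0.0482.

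Of 19 regulators of lipid genes 17 did not pass, 1 rose and 1 fell, and their median was 0.02. Ppard, a nuclear receptor for fatty acids, rose to 660 ± 47.5 in caNrf2 skin, against 328 ± 19.9 in control skin (n = 3; log2 difference 1.01 ± 0.07, limma adjusted p = 4.58e-05), though its other probe set gave 0.22. Ppargc1a, a coactivator of oxidative metabolism, fell by 0.40 on the log2 scale (limma adjusted p = 0.0444), and its 4 other probe sets gave -0.46 to -0.25. Ppargc1a passed with control replicate 2 left out, but with none of the other 5 arrays left out (highest adjusted p = 0.126).

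**Figure D4:**
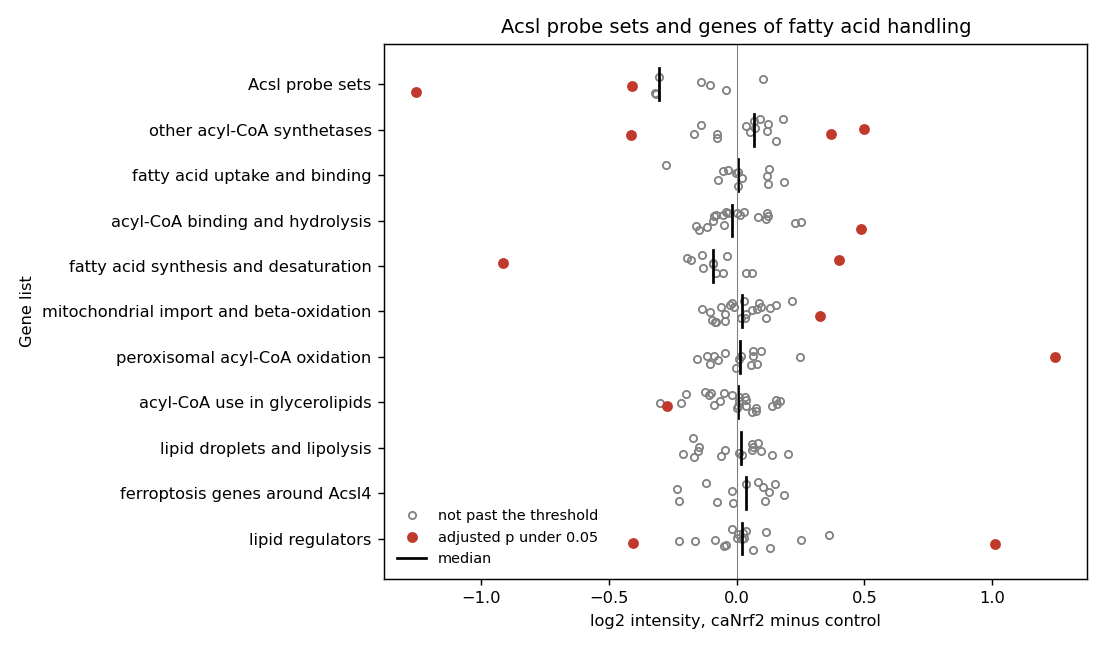
Log2 intensity difference, caNrf2 minus control, of the 9 Acsl probe sets (top row) and of 173 genes in 10 lists of fatty acid handling, filled where the adjusted p was under 0.05, with medians as black bars. The Acsl median is -0.30, and the list medians lie between -0.09 and 0.07.

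Markers of the cell types of skin were summed over each list to show what moved beside the Acsl genes. In bulk skin, fewer cells of a type and less RNA per cell cannot be told apart. Summed hair cortex and matrix markers ran from 23663 to 25355 in caNrf2 and from 24973 to 30250 in control skin, and all 13 differences were below 0 (median -0.19), although none passed in limma and 8 had an unadjusted p under 0.05. The 8 stand without the share of all genes at that cut, so they describe the list only. Over all probe sets, 51.3% of differences were below 0. Control replicate 3 was the lowest control in the hair sums. Summed sebocyte markers ran from 18576 to 19020 in caNrf2 and from 19438 to 20937 in control skin. In this list 2 of 7 genes fell, the fatty acid elongase Elovl3 by 0.38 and the fatty acyl-CoA reductase Far2 by 0.39 on the log2 scale (limma adjusted p = 0.015 and 0.0273). Elovl3 did not pass with caNrf2 replicate 3 or control replicate 1 left out (highest adjusted p = 0.0674), nor Far2 with any array but control replicate 3 left out (0.0855). Summed melanocyte markers ran from 10792 to 11800 in caNrf2 and from 12610 to 13340 in control skin, with all 9 differences below 0. Of these Gpr143, Mitf and Mlana fell by 0.32, 0.36 and 0.38 on the log2 scale (limma adjusted p = 0.0402 to 0.0463) and each failed to pass with 5 of the 6 arrays left out in turn (highest adjusted p = 0.158). The part of hair, sebaceous and pigment cells in the Acsl differences was not tested.

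Red cell precursors are a known site of Acsl6, and their summed markers ran from 692 to 741 in caNrf2 and from 659 to 773 in control skin, with none of 12 genes passing in limma and 3 having an unadjusted p under 0.05. Of them the haem synthesis enzyme Alas2 read 190 in caNrf2 and 186 in control skin, and the red cell anion exchanger Slc4a1 132 in caNrf2 and 146 in control skin, while Hba-a1 (19.4 and 17.8) lay within the Y-linked range. Summed markers of neurons and Schwann cells ran from 5163 to 5300 in caNrf2 and from 5168 to 5345 in control skin, with the ubiquitin hydrolase Uchl1 as the 1 gene of 11 to pass (0.92 ± 0.11, limma adjusted p = 0.00176). The brightest in that sum were Pmp22, Egr2 and Mbp. Nefl, Nefm and Snap25 had group means of 7.83 to 12.0, within the Y-linked range, while Tubb3 read 185 in caNrf2 and 190 in control skin. Summed adipocyte markers overlapped, at 34194 to 36621 in caNrf2 and 35629 to 36325 in control skin, with leptin, Lep, as the 1 gene of 8 that fell (-0.58 ± 0.07, limma adjusted p = 0.000946). In the remaining lists Ivl fell (-0.55) as the only 1 of 9 suprabasal markers below 0, and the list median was 0.08. Summed suprabasal markers overlapped, at 83399 to 87510 in caNrf2 and 81399 to 84661 in control skin. Cd207 rose (0.36) among 14 leukocyte markers, but did not pass with any of the 6 arrays left out. No gene passed in the lists of 15 skeletal muscle, 9 endothelial, 7 fibroblast and 7 basal keratinocyte markers (1, 1, 0 and 1 with an unadjusted p under 0.05). With an unmoderated statistic none of the 9 marker genes named as passing did, with adjusted p from 0.061 for Lep to 0.244 for Mlana. Summed endothelial markers were higher, at 2895 to 2960 in caNrf2 and 2690 to 2793 in control skin, and summed fibroblast markers lower, at 71703 to 73568 in caNrf2 and 74140 to 76922 in control skin. Summed basal keratinocyte markers were 32255 to 32858 in caNrf2 and 31487 to 32283 in control skin.

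**Figure D5:**
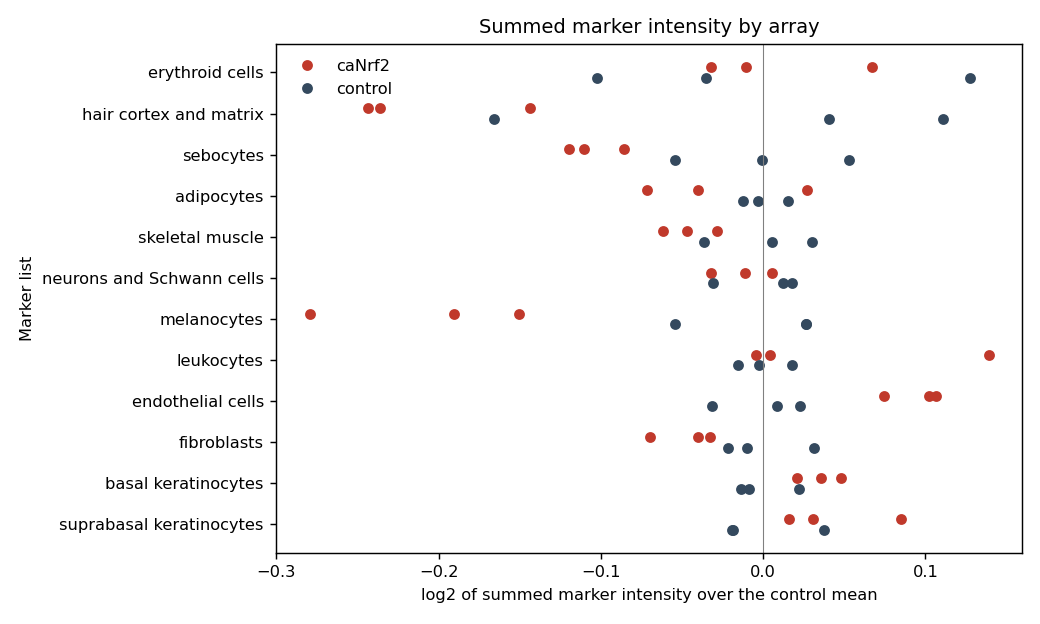
Log2 of the summed intensity of each marker list on an array over the mean of the 3 control arrays, caNrf2 (red, upper) and control (dark, lower). Melanocyte, sebocyte, fibroblast and endothelial sums do not overlap between the groups, and erythroid sums do.

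As a sign of RNA quality, the log2 ratio of 3' over 5' Actb control probe sets was 0.52 ± 0.01 in caNrf2 and 0.49 ± 0.01 in control skin (SD, n = 3 each), a difference of 0.03 between groups that did not overlap. For Gapdh it was -0.18 ± 0.02 in caNrf2 and -0.21 ± 0.01 in control skin, and the groups overlapped. The part of RNA quality in the Acsl differences was not tested. Over all probe sets, 470 were higher and 285 lower in caNrf2 skin in limma.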

How the data were processed

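The values deposited by the authors are linear intensities, 1 per probe set and array, made with RMA per the submitters' processing notes; its version is not given in the sources used here. RMA gives all arrays nearly the same distribution and so hides a shift shared by most transcripts. Per the labels' protocols, each array took biotin-labelled cRNA from 2 ug of total RNA.

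Symbols came from the array annotation, updated through Entrez identifiers with RefSeq (GRCm38.p6). The 64 array controls were left out. Log2 intensities of 45037 probe sets were fitted with limma 3.58.1 (R 4.3.3; lmFit and eBayes, group as the only term, two-sided, Benjamini-Hochberg over all probe sets). Lists used the same fit on 18193 genes, each by its probe set with the highest mean among the 34945 probe sets with 1 symbol. The nearest patterns and the spreads within genes were also taken from these. The number of arrays limits the precision. The fit was tested on simulated data.

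Named are all Acsl probe sets, up to 4 called genes of each pathway list with the smallest p (the 2 smallest where none passed), up to 3 called markers, and the 5 nearest patterns. Genes given as neighbours or for red cells beyond that were chosen after their values were seen. The family and the lists were chosen with earlier results of these data known.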

Additional observations from a re-analysis of the deposited data

How the results depend on the processing

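All 9 Acsl probe sets were refitted under up to 15 alternatives. Acsl6 1451257_at stayed below 0 in all 15, from -1.31 to -1.02, the latter with log2(intensity + 16), and passed the threshold in 14. The Acsl4 probe set 1451828_a_at passed in 8 of 14 and was itself removed without dim probe sets, where Acsl4 1418911_s_at passed (-0.32). Acsl3 1452771_s_at passed with an intensity trend and robust variances (-0.31). Acsl3 1428386_at changed sign, with a range from -0.14 to 0.01, and the other 8 kept theirs. With an unmoderated statistic from limma's fit, 137 probe sets were called higher and 15 lower; among Acsl probe sets 0 were lower (4 at an unadjusted p under 0.05), and among pathway genes 2 were higher and 0 lower (18 lower at an unadjusted p under 0.05). Lower probe sets in all numbered 610 with an intensity trend and robust variances, 428 with log2(intensity + 16) and 513 without dim probe sets, and the lower pathway genes 8, 7 and 7. With a lower limit for dim probe sets, added after seeing the data, these were 7. With a replicate block, the numbers of the titles used as pairs, 342 probe sets were higher and 177 lower, and it changed no other count by over 1.5 times. Deviations of same-numbered arrays from their group means had r of 0.04, 0.16 and 0.08, and those of differently numbered arrays -0.14 to 0.07. These values do not settle whether the numbers pair the mice, and the main fit did not pair them. Leaving out each array in turn gave 280 to 354 higher and 79 to 270 lower probe sets, 3 to 6 higher and 2 to 3 lower pathway genes, and 1 to 2 lower Acsl probe sets.

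Signal near that of Y-linked probe sets limits what Acsl6 1437031_at, Acsl4 1451828_a_at and Acsl3 1428387_at can show.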
